A study of Homo sapiens with 8 samples.

Results

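Broad open regions were stretches of chromatin where ATAC-seq peaks, merged over 8 libraries, spanned 1500 bp or more and every library had a peak. ATAC-seq uses the Tn5 transposase to cut and tag accessible DNA, so a peak marks a stretch where DNA is more exposed than its surroundings. The 8 peak lists were joined wherever peaks shared at least 1 bp, which gave 133028 merged regions, of which 26255 lay on autosomes and held a peak from every library. Of those, 1135 (4.32%) reached 1500 bp and were kept. They were selected on the measured peak widths, so their width is a description and not a result. The 25120 narrower regions shared by all libraries served for comparison.

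Both lines are established B cell precursor acute lymphoblastic leukaemia (B-ALL) lines. In each line, 2 libraries came from control cells with an empty guide vector, labelled SETD2 WT, and 2 from 1 clone that received a guide RNA against SETD2 and is labelled as a heterozygous knockout. The 697 clone is named BM_B and the KOPN-8 clone BA. Libraries of a group are labelled as biological replicates, with no word on how cultures were kept apart, so p-values measure the spread between these libraries, which may be technical. The control labels name no clone and do not say whether the cells are a bulk population. A clone may differ from its control by clonal history as well as by the edit, and these cannot be told apart. The lists held 57154 to 76495 peaks each. Read depth is unknown.

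Most open regions of a genome are narrow, the footprint of a promoter or enhancer from which nucleosomes have been displaced. Wider openings are known mainly from promoters rich in CG dinucleotides (CpG islands), which tend to stay free of nucleosomes in most cell types, from promoters that run in both directions, and from clusters of enhancers. SETD2 places the trimethyl mark on lysine of histone H3 known as H3K36me3 along transcribed gene bodies, and the related enzyme NSD2 places the dimethyl form. Promoters themselves normally lack H3K36me3.

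Gene names rest on start and end positions in hg19 from general knowledge, since no hg19 annotation was used. A gene was placed only if its chromosome and length matched the RefSeq table for GRCh38.p14. Sequence upstream of the start site is printed for 4 genes to show how CG content varies among them. SETD2 is the edited gene, NSD2 had the most CG dinucleotides of all genes placed here, IRF4 lay under one of the most finely split regions, and CD79A, a signalling chain of the B cell receptor, is a contrast whose start was open in all 8 libraries but under a region of only 905 bp. Each line holds the 250 bases before the RefSeq start (GRCh38.p14, gene strand), with CG dinucleotides in capitals. Whether each printed stretch lies inside the hg19 region of the same gene was not tested.
SETD2: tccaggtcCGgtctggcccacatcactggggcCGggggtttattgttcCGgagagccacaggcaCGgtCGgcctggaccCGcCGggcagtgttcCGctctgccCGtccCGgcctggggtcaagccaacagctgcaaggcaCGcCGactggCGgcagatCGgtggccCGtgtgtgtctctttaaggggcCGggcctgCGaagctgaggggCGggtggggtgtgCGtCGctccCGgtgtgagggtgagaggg
NSD2: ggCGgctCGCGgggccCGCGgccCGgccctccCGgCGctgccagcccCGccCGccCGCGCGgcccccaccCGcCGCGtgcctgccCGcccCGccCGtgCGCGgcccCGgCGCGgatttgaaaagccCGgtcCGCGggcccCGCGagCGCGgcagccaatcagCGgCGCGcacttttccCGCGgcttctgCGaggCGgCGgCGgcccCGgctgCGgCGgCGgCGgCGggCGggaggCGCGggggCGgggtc
IRF4: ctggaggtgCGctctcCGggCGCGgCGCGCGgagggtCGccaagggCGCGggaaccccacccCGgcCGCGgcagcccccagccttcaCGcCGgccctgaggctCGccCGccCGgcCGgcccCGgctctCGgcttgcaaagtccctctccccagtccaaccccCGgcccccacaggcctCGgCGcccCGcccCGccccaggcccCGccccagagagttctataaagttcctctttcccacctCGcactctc
CD79A: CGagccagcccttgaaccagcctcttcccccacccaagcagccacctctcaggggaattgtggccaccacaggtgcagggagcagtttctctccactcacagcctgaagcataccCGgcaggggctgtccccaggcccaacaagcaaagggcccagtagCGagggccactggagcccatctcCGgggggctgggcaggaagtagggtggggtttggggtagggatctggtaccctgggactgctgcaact

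These upstream stretches held 21 CG dinucleotides for SETD2, 50 for NSD2, 28 for IRF4 and 4 for CD79A, against a median of 11 over all 27305 RefSeq promoters in the table. Over the 10 listed genes with their start inside a broad region the median was 26, with a range of 12 to 50. It was 22.5 over 40 listed genes whose start was open in all 8 libraries under a narrower region, and 7 over 7 listed genes with no peak at the start in any library. A GC box, searched as GGGCGG on both strands, stood in 8 of the 10 promoters in broad regions, in 27 of the 40 in narrower ones and in 42.3% of all RefSeq promoters. A further 25 genes, placed after their broad regions had been named, had a median of 21. The CG counts in broad regions thus overlapped those of other open promoters in the same lists and were not particular to them. A matching motif is a description of the sequence and not a site.

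The 1135 regions had a median merged width of 1670 bp and ranged from 1500 to 2860 bp, while the other shared regions had a median of 699 bp. A count of 380 regions measured 1500 to 1600 bp and 137 measured 2000 bp or more, of which 17 measured 2500 bp or more. The minimum width cut through a smooth slope: 33 regions measured 1500 to 1509 bp and 47 measured 1490 to 1499 bp. Just inside it at 1500 bp lay the starts of RAB3IP (chr12:70132169-70133668), with a covered width of 770 to 1402 bp per library, and of NOP16 and HIGD2A (chr5:175815063-175816562), with 810 to 1289 bp, as well as chr7:94138745-94140244, with 1302 to 1410 bp. Just outside at 1499 bp lay chr1:145588565-145590063 with 491 to 1065 bp, chr10:75633587-75635085 with 632 to 1403 bp, and chr15:73075420-73076918 with 993 to 1323 bp. The ranges on the 2 sides of the limit overlapped.

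A merged width counts bases from any library, so it exceeds what most single libraries covered. The median covered width per region was 1343 and 1413 bp for the 697 controls against 1422 and 1495 bp for the 697 clone. The KOPN-8 controls had 1436 and 1391 bp and the KOPN-8 clone 1444 and 1407 bp. Only 151 regions were covered over at least 1500 bp in all 8 libraries, and 291 reached that in none. In 762 regions at least 1 library had a single peak of 1500 bp or more. The stretch covered by all 8 libraries at once had a median of 1041 bp, or 62.0% of the merged width. It reached 1000 bp in 619 regions, and 10 regions had no base that all libraries covered.

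**Figure D1:**
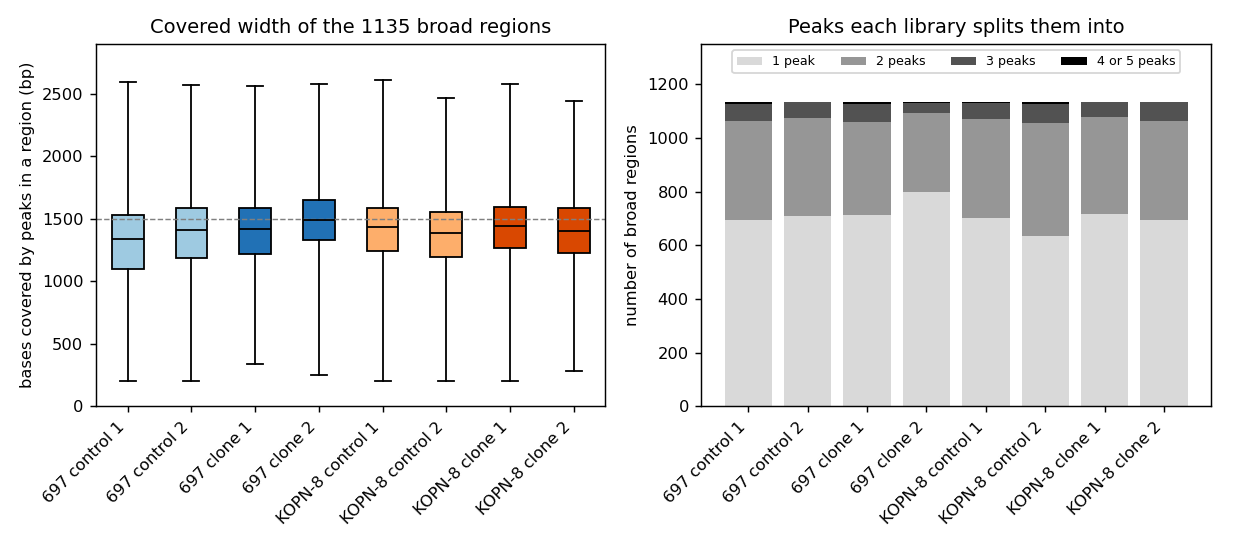
Left, bases covered by peaks within each of the 1135 broad regions (bp), by library; boxes span the quartiles, lines the median and whiskers the lowest and highest region, and the dashed line is the 1500 bp limit on merged width. Right, number of broad regions that each library covers with 1, 2, 3, or 4 or 5 peaks; replicate 2 of the 697 clone, with the longest list, has the highest median (1495 bp) and the most regions with 1 peak (798).

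Libraries often cut a broad region into pieces. The mean number of peaks per region was 1.46 and 1.43 for the 697 controls and 1.45 and 1.34 for the 697 clone. It was 1.45 and 1.52 for the KOPN-8 controls and 1.42 and 1.45 for the KOPN-8 clone. In the narrower shared regions it was 1.05 to 1.07. Merging joins neighbouring peaks and broad regions were selected on merged width, so the higher number is a description and not a result. As means ± SD over 2 libraries, the 697 controls split 38.2% ± 0.87 of the broad regions and the 697 clone 33.4% ± 5.2, while the KOPN-8 controls split 41.1% ± 4.0 and the KOPN-8 clone 37.8% ± 1.4. In each line the arms differed by less than the SD of their more variable group. Replicate 2 of the 697 clone, which split the fewest regions, also had the longest list, with 76495 peaks, and the part of list length in this number was not tested.

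Whether a region was cut varied between the 8 libraries. Of the 1135 regions, 262 were a single peak in all 8 libraries, 57 were split in all 8, and 816 were split in some libraries and whole in others. A line difference in splitting without overlap was rare: 13 regions were split in all 4 libraries of 697 and whole in all 4 of KOPN-8, and 21 the other way round. The 3989 gaps between pieces were short, with a median of 128 bp and a range of 52 to 1359 bp. Where 2 libraries both split a region, their gaps overlapped in most regions. The median share was 87.9% for libraries of 1 group (4 pairs, 83.5% to 92.0%). It was 85.8% for the other arm of the same line (8 pairs, 82.1% to 88.7%). For the other line it was 79.7% (16 pairs, 72.6% to 83.2%). The ranges of the first 2 kinds overlapped. Whether these shares exceed those of gaps placed at random was not tested.

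Several of the 10 most split regions lay at gene starts, most of them of genes placed after the regions had been named. The share of all broad regions at gene starts was not counted. The regions with the highest mean number of peaks, 3.38 each, were at EXTL2 (chr1:101360151-101362554), which encodes a glycosyltransferase acting on heparan sulfate, and chr6:170403158-170405521, where no gene was placed. IRF4, a transcription factor of B cell maturation, had 4, 3, 3 and 3 peaks in 697 and 3, 5, 2 and 2 in KOPN-8, in each line controls first (chr6:391120-393620). Its peaks covered 1467, 1646, 1158 and 2073 bp in 697 and 1766, 1588, 1838 and 1785 bp in KOPN-8, so the lines overlapped. POU2F1, a broadly expressed octamer-binding factor, had a mean of 3 peaks (chr1:167189126-167191744), with 4, 3, 4 and 3 in 697 and 2, 3, 3 and 2 in KOPN-8. ACVR2B, an activin receptor, had a mean of 2.88 peaks (chr3:38494939-38497459). A mean of 2.75 peaks was seen at HIVEP2, a zinc finger factor (chr6:143265345-143267870), at MEPCE, the capping enzyme of a small nuclear RNA, and its neighbour ZCWPW1 (chr7:100026204-100028423), and inside DAB2IP (chr9:124461139-124463316). The other regions among the most split, chr12:121974069-121976133 with 3 and chr12:56122045-56124245 with 2.75, are given by position only. Among 7 regions tied at 2.75 the wider were taken, which left out 3: the region inside RUNX1 on chromosome 21, chr2:27272779-27274863 and chr3:53194560-53196216.

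**Figure D2:**
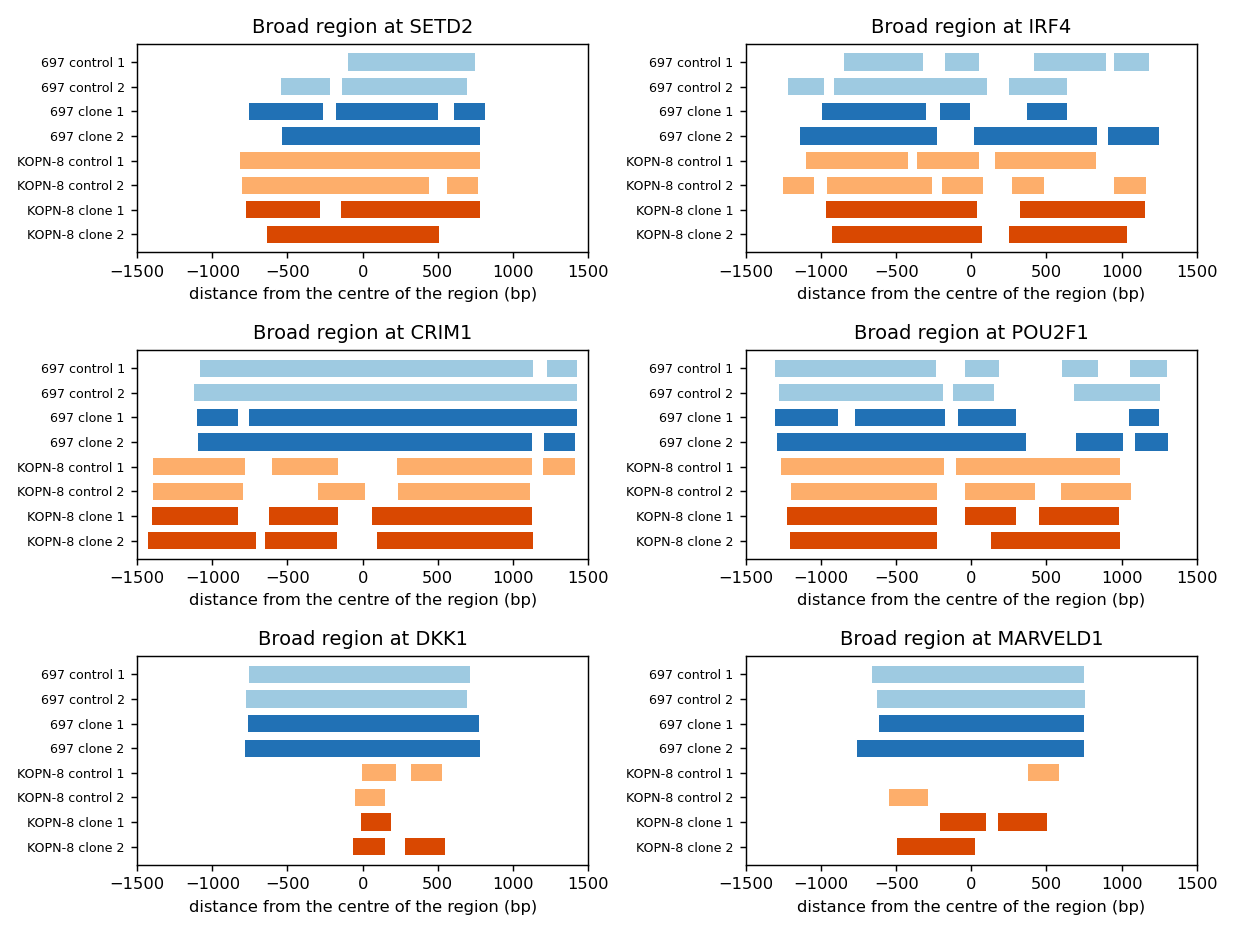
Peaks of each library (rows) in the broad regions at 6 gene starts, drawn by distance from the centre of the region (bp); pale bars are controls and dark bars the clones, blue for 697 and orange for KOPN-8. At IRF4 and POU2F1 every library splits the region, at CRIM1 697 control 2 has 1 peak while KOPN-8 control 1 has 4, and at DKK1 and MARVELD1 KOPN-8 covers a small part of the width seen in 697.

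The widest region of all lay at the start of CRIM1 (chr2:36582471-36585330, 2860 bp), which encodes a membrane protein that binds bone morphogenetic proteins. Its peaks covered 2418, 2549, 2454 and 2433 bp in 697 and 2160, 1793, 2097 and 2237 bp in KOPN-8. All 697 libraries lay above all KOPN-8 libraries there, with a log2 difference of -0.29 ± 0.10 (SE) that missed the threshold (limma, adjusted p = 0.0801). TRIO, a guanine nucleotide exchange factor, came next at 2745 bp (chr5:14142862-14145606) and was the steadiest of the widest: it was covered over 2592, 2433, 2429 and 2579 bp in 697 and 2611, 2467, 2580 and 2404 bp in KOPN-8. PPP3CA, the catalytic subunit of calcineurin, followed at 2653 bp (chr4:102266966-102269618). RREB1, a zinc finger factor, measured 2645 bp (chr6:7106991-7109635) and varied more, from 699 to 2133 bp among the 697 libraries. POU2F1 measured 2619 bp and ANKRD33B 2591 bp (chr5:10562350-10564940).

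CPEB2, which binds polyadenylation elements in messenger RNA, had a region of 2644 bp (chr4:15003005-15005648) that differed between the lines. Peaks covered 2547, 2575, 2144 and 2394 bp of it in 697 and 1549, 1361, 1611 and 1603 bp in KOPN-8, with a log2 difference of -0.69 ± 0.09 (adjusted p = 0.00288). The opposite direction held at chr3:159480733-159483460 (2728 bp), with 1178, 853, 1060 and 720 bp in 697 and 1976, 2238, 1995 and 1841 bp in KOPN-8 (1.07 ± 0.20, adjusted p = 0.0111). In both regions the lines did not overlap. The other regions among the 10 widest, chr4:145566064-145568711 (2648 bp) and chr1:92950119-92952717 (2599 bp), did not pass the line test.

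The strength of a region was taken as the rank of its strongest peak within each list, by the fold enrichment the authors deposited, on a scale from 0 to 100. The lowest rank over the 8 lists had a median of 74.4 for broad regions and 52.7 for the narrower shared ones. Broad regions were seldom weak, with 61 (5.37%) below the 25th percentile in some list against 18.3% of narrower regions. They were not especially frequent at the very top, where 130 (11.5%) stayed at or above the 90th percentile in every list against 9.45%. Width and rank come from the same reads, so the relation is a description.

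Of the 10 strongest broad regions, several lay at starts of genes that were placed after the regions had been named. The highest lowest rank, 99.9, was at chr5:86707790-86709446, whose peaks covered 1018 to 1086 bp in 697 and 882 to 1259 bp in KOPN-8. MED7, a subunit of the Mediator complex, followed at 99.4 (chr5:156569292-156570813). OPA1, which fuses mitochondrial inner membranes, had 97.8 (chr3:193310186-193311852), and DCUN1D5, a factor in cullin neddylation, 97.3 (chr11:102961805-102963330). ADH5, which clears formaldehyde, had 97.2 (chr4:100009188-100010905), SAP30L, a Sin3 complex component, 97.0 (chr5:153824905-153826524) and PRRC2C 96.6 (chr1:171453992-171455603). The regions chr4:169930577-169932100 (98.7), chr3:180629777-180631294 (97.0) and chr11:94500763-94502376 (96.4) completed the 10. High rank did not keep the lines equal in width. At DCUN1D5 the 697 libraries covered 1486, 1515, 1454 and 1515 bp and the KOPN-8 libraries 1132, 1117, 1152 and 1140 bp (-0.43 ± 0.09, adjusted p = 0.0153), and ADH5 differed the same way (-0.48 ± 0.09, adjusted p = 0.0104).

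Of 106 genes in 8 lists, 93 passed the check of their position, 92 of them on autosomes. Of 18 B lineage factors, 10 had a peak within 500 bp of the start in all 8 libraries, and so did 9 of 14 B cell receptor and surface genes. MEF2C and ARID5B had none in any library. Among the markers fixed for the B lineage, EBF1, CD79A and CD79B had such a peak in all 8 and PAX5, the factor that fixes B cell identity, in 7. CD22 had one in 5 libraries. Of 10 placed genes of other lineages, among them CD3E of T cells, MPO of myeloid cells and ALB of liver, 9 had none in any library and CD2 had one in 1 library.

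Of the 92 autosomal genes, 57 had a peak at the start in every library, and 10 of these starts lay inside a broad region. The widest shared region at the start of the other 47 had a median of 907 bp and a range of 404 to 1498 bp, and 18 of them reached 1000 bp. The widest of these, named after its value was seen, was at BACH2, a repressor of plasma cell fate, at 1498 bp. Counting regions within 10 kb of the gene, 13 genes had one. By list these were 3 of 18 B lineage factors, 3 of 12 ETS, RUNX and stem cell factors, 1 of 7 fusion genes and their targets, 1 of 14 B cell surface genes, 0 of 10 cell cycle and survival genes, 2 of 4 H3K36 methylation genes, 3 of 17 broadly expressed genes and 0 of 10 genes of other lineages. Genes that failed the check of their position were left out of these counts. Among them, the assumed starts of BTG1 and NR3C1, both from the cell cycle and survival list, lay in broad regions. So did those of IKZF1, from the B lineage factors, and JMJD1C, from the fusion genes and their targets. Several B cell genes were open under narrower regions, chosen here as examples, of 608 bp at EBF1, 780 bp at CD79B and 905 bp at CD79A.

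SETD2 itself had its start in a broad region (chr3:47204796-47206424, 1629 bp). Peaks covered 850 and 1161 bp in the 697 controls against 1382 and 1317 bp in its clone. In KOPN-8 the controls had 1595 and 1452 bp and the clone 1419 and 1143 bp. The clone lay above its controls in 697 (log2 difference 0.30 ± 0.17) and below them in KOPN-8 (-0.29 ± 0.17), and neither passed the test (limma, adjusted p = 0.64 and 0.81), nor did the difference between them (-0.58 ± 0.23, adjusted p = 0.568). Peak width at the promoter says nothing of whether the edit is present. NSD2 (chr4:1872067-1873740, 1674 bp) was covered over 859, 1044, 1097 and 1150 bp in 697 and 1558, 1134, 1296 and 1629 bp in KOPN-8. The remaining H3K36 genes had narrower regions at the start, of 1482 bp at NSD1 and 1061 bp at ASH1L.

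Among the other listed genes with a broad region, 2 differed between the lines. HNRNPA2B1, an RNA-binding protein gene whose promoter is shared with a neighbour, was 1 peak in all 8 libraries (chr7:26240248-26241906). It measured 1591, 1601, 1639 and 1656 bp in 697 and 1273, 1242, 1271 and 1233 bp in KOPN-8 (-0.40 ± 0.09, adjusted p = 0.0208). TCF12, a helix-loop-helix factor of lymphocyte development, was covered over 1344, 1301, 1659 and 1375 bp in 697 and 1067, 1025, 1122 and 873 bp in KOPN-8 (chr15:57210311-57212399, -0.51 ± 0.13, adjusted p = 0.0361). In both genes every 697 library lay above every KOPN-8 library. MIR17HG, the host gene of a microRNA cluster amplified in lymphoma, was 1 peak of 2101 to 2471 bp in every library, with 2089 bp common to all (chr13:91999194-92001702). POLR2A, the largest subunit of RNA polymerase II, ranged from 211 to 1405 bp in 697 and from 1428 to 1655 bp in KOPN-8, without overlap but with too wide a spread to pass (chr17:7386560-7388385, 1.17 ± 0.38, adjusted p = 0.0724).

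The remaining starts in broad regions were those of CXCR4, the chemokine receptor that holds precursors in bone marrow (chr2:136873776-136875459), PBX3, a homeobox partner of HOX proteins (chr9:128508216-128509792), and ETV6, an ETS repressor often fused in childhood leukaemia (chr12:11801680-11803339). CXCR4 was covered over 1021, 1102, 1453 and 1396 bp in 697 and 985, 1117, 947 and 984 bp in KOPN-8. ETV6 was covered over 1171 to 1409 bp in 697 and 1363 to 1588 bp in KOPN-8, and PBX3 over 971 to 1265 bp and 866 to 1414 bp. None of these passed the line test. A broad region lay inside FLI1 (chr11:128563636-128565326) and another inside RUNX1 (chr21:36260840-36262698), away from the start sites used, and one lay within 10 kb of LEF1 (chr4:109092621-109094639).

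The lines were compared by the log2 of the bases that peaks cover in a region, with each library centred on its median, in 1 fit over all 26255 shared regions. Of the 1135 broad regions, 110 (9.69%) were wider in KOPN-8 and 106 (9.34%) wider in 697 at an adjusted p under 0.05, against 9.16% and 10.7% of all shared regions. On this scale the shares lay near the background. With covered width in bp they did not: 375 broad regions (33.0%) were called, against 19.4% of all shared regions. Broad regions were selected on their width in bp, so the larger share on that scale is a description and not a result. Without overlap between the lines, 153 (13.5%) were wider in KOPN-8 and 170 (14.98%) wider in 697, against 11.7% and 12.5%. The median difference was -0.03 in broad regions and -0.03 in all shared regions. With lists cut to equal length the split moved to 67 wider in KOPN-8 and 111 wider in 697, of 1028 broad regions. Over all 24252 shared regions of those lists it was 1894 and 2306. Both directions together made 17.3% of the broad regions and 17.3% of all shared regions. In every fit without 1 library the calls became fewer, among broad regions and among all shared regions alike.

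**Figure D3:**
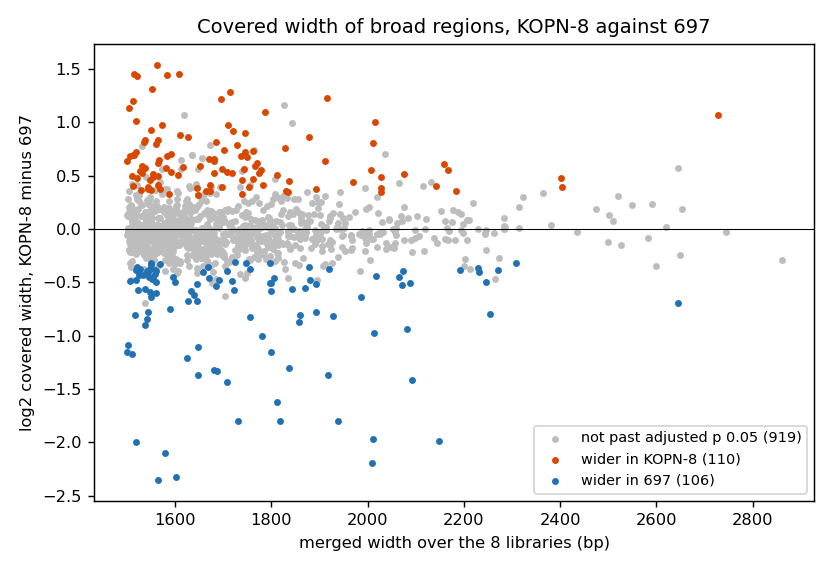
Each point is 1 of the 1135 broad regions, by merged width (bp) and by the log2 difference in covered width between KOPN-8 and 697 (4 libraries each, centred); coloured points passed an adjusted p of 0.05 (limma), 110 wider in KOPN-8 and 106 in 697. Differences wider in 697 reach -2.35, while the largest wider in KOPN-8 is 1.54.

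Regions wider in 697 held the larger differences. DKK1, a secreted inhibitor of Wnt signalling, had 1 peak of 1474, 1473, 1537 and 1566 bp at its start in 697, and 439, 200, 200 and 478 bp covered in KOPN-8 (chr10:54073496-54075061). The means were 1512.5 ± 46.6 bp and 329 ± 150 bp (SD, n = 4), and the log2 difference was -2.35 ± 0.32 (limma, adjusted p = 0.0037). The KOPN-8 peaks ranked between 8.74 and 21.7 in their lists and those of 697 between 77.3 and 86.9, so every KOPN-8 peak there was weak. MARVELD1, a membrane protein gene, had 1410, 1386, 1365 and 1507 bp in 697 and 203, 260, 638 and 519 bp in KOPN-8 (chr10:99473267-99474785, -1.99 ± 0.13, adjusted p = 0.00048), and no base was covered by all 8 libraries.

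The other regions most widened in 697 had no gene placed. At chr2:3827193-3828794 the 697 libraries covered 1329, 1402, 1415 and 1602 bp and the KOPN-8 libraries 275, 289, 252 and 366 bp (-2.33 ± 0.14, adjusted p = 0.000453). Here the KOPN-8 peak was narrow but not weak, with ranks of 65.7 to 76.2. At chr15:93631531-93633539 the difference was -2.20 ± 0.13 (limma, adjusted p = 0.000453) and the KOPN-8 ranks were 2.47 to 16.5. No base of that region was covered by all 8 libraries. At chr3:194722708-194724286 the difference was -2.10 ± 0.15 (adjusted p = 0.000515).

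In the regions most widened in KOPN-8, the narrower peaks of 697 were strong at some and weak at others. At chr2:240597948-240599510 the KOPN-8 libraries covered 1242, 1107, 1334 and 1185 bp and the 697 libraries 386, 359, 341 and 589 bp (1.54 ± 0.15, adjusted p = 0.00114), although the 697 peaks ranked 65.6 to 89.7. Inside DLEC1, a candidate tumour suppressor gene, KOPN-8 covered 1325, 1217, 1456 and 1588 bp and 697 covered 363, 445, 588 and 644 bp (chr3:38155614-38157221, 1.45 ± 0.09, adjusted p = 0.00048). The peaks of 697 there ranked 71.2 to 83.5, so both regions had a strong narrow peak in 697. At chr2:179922856-179924377 the 697 peaks were weak, with ranks of 6.06 to 22.4, and KOPN-8 covered 833 to 1070 bp (1.43 ± 0.28, limma, adjusted p = 0.014). No base of that region was covered by all 8 libraries. The regions chr3:177666433-177667948 (1.45 ± 0.31, adjusted p = 0.0178) and chr11:126205990-126207572 (1.45 ± 0.27, adjusted p = 0.0115) made up the 5. The call at chr3:177666433-177667948 was lost with lists of equal length (1.19) and without KOPN-8 clone 1 (1.39).

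Across all broad regions, covered width followed the line more than the arm. The correlation of log2 covered width over the 1135 regions was 0.779 to 0.846 between libraries of 1 group, 0.721 to 0.795 between arms of a line and 0.278 to 0.336 between lines. These are correlations across regions, which all had to be wide in at least some library, and they are given as a description. The ratio of the widest to the narrowest library had a median of 1.38 in broad regions and 1.64 in the other shared regions. The same difference in bp makes a smaller ratio in a wider region, and broad regions were selected on width. The lower ratio is therefore a description and does not show that they were steadier. In 162 broad regions it was 2 or more.

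No broad region passed the test of a clone against its control. In 697 the count was 0 of 1135 by limma, against 0% of all shared regions. At an unadjusted p under 0.05 it was 64 of 1135, beside 2452 of all 26255 regions. In KOPN-8 it was 0, against 0.00381% of all shared regions, with 54 unadjusted (2094 of all 26255). For the difference between the clone effects it was 0, against 0%, with 65 unadjusted (2172 of all 26255). With 2 libraries per group the clone and control did not overlap in many regions: the 697 clone was wider in 411 broad regions (36.2%, against 29.8% of all shared regions) and narrower in 70 (6.17%, against 7.97%). The KOPN-8 clone was wider in 278 (24.5%, against 21.7%) and narrower in 173 (15.2%, against 16.9%). The sign in 697 depended on the scale. The median log2 difference of the broad regions was -0.08 after centring and 0.07 without it, since centring shifts every 697 clone difference by 0.15. Both 697 clone lists were longer than the control list of the same replicate number, and the part of list length in these values was not tested.

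The largest clone differences are named although none passed. In 697 these were chr2:207109748-207111300, with 206 and 342 bp covered in its controls against 779 and 1169 bp for the clone (1.699 ± 0.251, limma, adjusted p = 0.078), the start of ANP32B, a nuclear histone chaperone (chr9:100745873-100747507, 1.20 ± 0.43, adjusted p = 0.458), and that of RASGRP2, an exchange factor for the GTPase Rap (chr11:64512113-64513785, 1.14 ± 0.40, adjusted p = 0.452). In KOPN-8 the largest was at PHF2, a histone demethylase (chr9:96338036-96339770), where controls had 492 and 236 bp and the clone 1381 and 1369 bp (1.98 ± 0.29, adjusted p = 0.0884). In 697 the clone had 930 and 1063 bp there and the controls 691 and 937 bp. No base of the PHF2 region was covered by all 8 libraries. The difference between the clone effects was 1.82 ± 0.41 (adjusted p = 0.248). MARVELD1 had 203 and 260 bp in the KOPN-8 controls and 638 and 519 bp in its clone, which did not pass (1.29 ± 0.18, adjusted p = 0.0821), nor did UBASH3B, a suppressor of tyrosine kinase signalling (chr11:122526158-122527832, 1.14 ± 0.26, adjusted p = 0.21). Several of these values rest on 1 library. ANP32B moved to 1.95 without 697 control 1 and to 0.45 without 697 control 2, and RASGRP2 to 0.41 and 1.87. UBASH3B moved to 0.76 without KOPN-8 control 1 and to 0.34 with lists of equal length. For the difference between clones, chr19:34286303-34288331 was the other region named (-1.49 ± 0.26, adjusted p = 0.176).

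The broad regions were unevenly spread over chromosomes. Per 100 shared regions there were 5.76 on chromosome 4, 5.44 on chromosome 13 and 5.36 on chromosome 6, and the lowest numbers were 1.35 on chromosome 19 (9 of 667), 2.38 on chromosome 17, 2.41 on chromosome 22, 2.46 on chromosome 20 and 2.62 on chromosome 16. These low chromosomes are gene dense. Across the 22 autosomes the rate fell with the number of protein-coding genes per shared region (Pearson's r = -0.871, Spearman's rank correlation = -0.836), a description over chromosomes of the same libraries. The ratio to the autosomal rate depended on the limit of width: on chromosome 19 it was 0.31 at 1500 bp, 0.87 at 1000 bp and 0.57 at 2000 bp, and on chromosome 4 it was 1.33, 0.89 and 2.51. The nearest other broad region lay a median of 579 kb away, 61 had one within 50 kb and 4 within 10 kb. Whether this spacing differs from random placement was not tested. HIVEP2 held a second broad region (chr6:143255774-143257526), as did ANKRD33B (chr5:10607012-10608657).

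**Figure D4:**
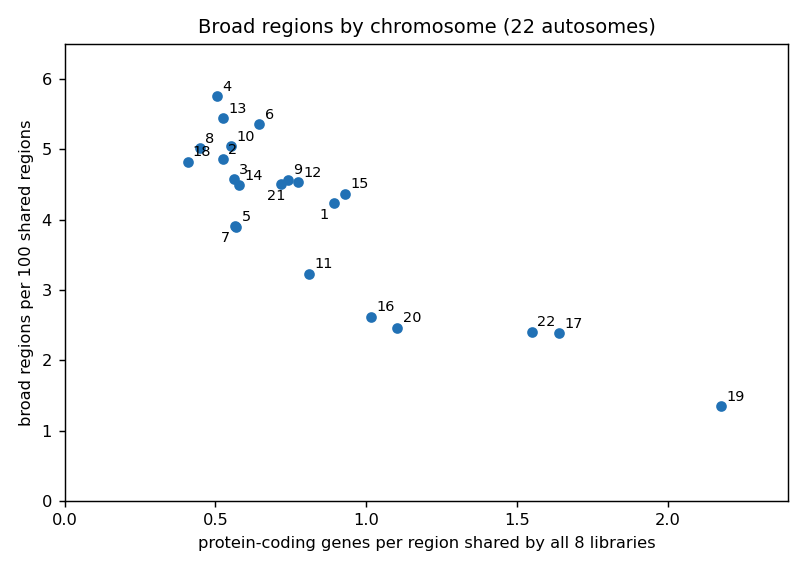
Broad regions per 100 regions shared by all 8 libraries, against protein-coding genes per shared region, for the 22 autosomes (points, numbered). Chromosome 19 lies lowest at 1.35 and chromosome 4 highest at 5.76.

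On the same gene-dense chromosomes more broad regions were wider in KOPN-8 than in 697. Of the 67 broad regions on chromosomes 16, 17, 19, 20 and 22, 19 were wider in KOPN-8 and 4 wider in 697, while 21.01% and 3.17% of all shared regions there were. On the other autosomes 91 of 1068 were wider in KOPN-8 and 102 wider in 697, while 7.64% and 11.6% of all shared regions there were. Without centring the 67 split into 15 and 3. With lists of equal length 56 remained on these chromosomes and split into 8 and 4. The median covered width on chromosome 17 was 952.5 bp in 697 and 1351.5 bp in KOPN-8, and on chromosome 22 it was 784.5 and 1140.5 bp. These chromosomes were grouped after their values were seen.

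The clone differences also had a chromosome pattern. In 697 the median of the broad regions on chromosome 22 was 0.43 after centring, but it rests on 7 regions: all 291 shared regions of that chromosome had a median of 0.09, and among all shared regions chromosome 19 was highest at 0.18. The median over all broad regions was -0.08. In KOPN-8 the lowest medians were -0.10 on chromosome 8 and -0.07 on chromosome 13, close to those of all shared regions there (-0.09 and -0.07), and both stayed below 0 without centring (-0.06 and -0.04).

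**Figure D5:**
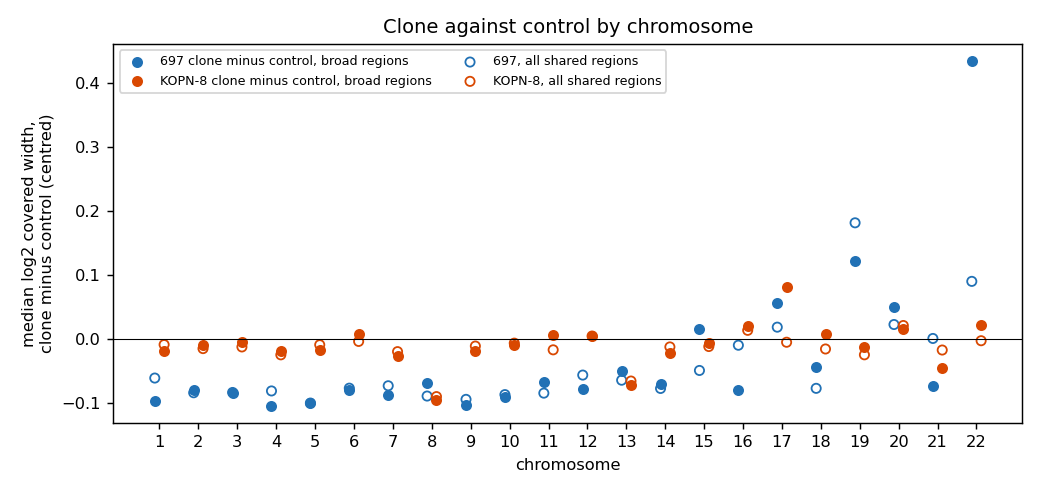
Median log2 difference in covered width between clone and control (2 libraries each, centred) on each autosome, for broad regions (filled) and all shared regions (open), blue for 697 and orange for KOPN-8. For broad regions chromosome 22 stands highest in 697 at 0.43 (7 regions), and chromosome 8 lowest in KOPN-8 at -0.10.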

How the data were processed

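ATAC-seq peaks were analysed in 8 libraries (2 lines, 4 groups of 2). Per the submitters' processing notes, the tools include Bowtie2 (an aligner) and MACS2 (a peak caller) and the build is hg19; versions and settings are not given in the sources used. Each list is of 1 library, not pooled. The deposited lists give positions and 1 value per peak, read from its values as a fold enrichment (a linear ratio), and used here only to rank peaks within a list. All peaks were at least 200 bp wide, so a covered width of 200 bp is the smallest a call can give. Positions are in hg19, counted from 1.

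Lists were merged at 1 shared bp. Covered width (log2, each library centred on its median) was fitted over 26255 regions with limma 3.58.1 in R 4.3.3, with group as factor and Benjamini-Hochberg adjustment at 0.05. The step was tested on simulated data. Same-numbered replicates did not deviate together in both lines (r = 0.06 in 697 and -0.004 in KOPN-8 over all shared regions, 0.13 and -0.04 over broad regions), so pairs were not used in the main fit.

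The members and gene lists were chosen with earlier results of these data known. Regions named were the 10 widest, the 10 most split, the 10 of highest lowest rank, the 5 largest differences per direction of the line test (3 where none passed), 3 on each side of the limit and those at listed genes. Genes were placed in hg19 from general knowledge and checked for chromosome and length (within 5% or 1 kb) against RefSeq, and for strand only where the promoter table held the gene. A further 42 genes were placed after the named regions were known, of which 29 passed. Some items are not reported here.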

Additional observations from a re-analysis of the deposited data

How the results depend on the processing

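The count of 1135 broad regions was 836 with the strongest 50% of each list, 1028 with lists of equal length, 1040 with peaks joined at 50% of the shorter, 923 when a call had to cover 50% of the region, and 1004 to 1110 without each replicate in turn. A minimum of 1000 bp gave 6585, a minimum of 2000 bp 137, and a median covered width of 1500 bp 367.

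The 216 regions that differed between the lines (19.03%, against 19.8% of all shared regions) became 375 with covered width in bp (33.0% against 19.4%), 263 in a fit on regions of at least 1000 bp (23.2% against 23.8%), 197 without centring, 178 with lists of equal length and 122 to 189 without each replicate in turn. With a replicate block the count was 157. The block was not the design, since shared numbers did not mark shared deviations in both lines. The block changed no call of a clone against its control, where no broad region passed in any alternative run. Of the 10 regions named for the line test, all kept their direction in every alternative that gave a value, but 4 (DKK1, MARVELD1, chr15:93631531-93633539 and chr2:179922856-179924377) were no longer called in all 8 lists of equal length and have no value there. Besides the region at chromosome 3 named above, chr11:126205990-126207572 and chr2:179922856-179924377 lost the call with the replicate block, at 1.45 and 1.43. 

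The mean number of peaks per region fell from 1.44 to 1.18 when peaks closer than 150 bp were joined and to 1.26 with lists of equal length. The lowest rank had a median of 75.7 with lists of equal length, an alternative chosen after seeing the data, as were those for chromosomes. Genes of the lists with a broad region numbered 12 within the gene and 14 within 50 kb. The causes were not tested. Read depth is unknown, so a missing or short peak may be a weak call.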

Other observations

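Outside the rule, the X chromosome had 39 regions of at least 1500 bp among 851 called in all 8 libraries, or 4.58 per 100, close to the autosomal 4.32. On autosomes 1231 merged regions reached that width in any number of libraries, and 96 of these lacked a peak in at least 1 library. Of the 96, 8 had no peak in any 697 library and 32 none in any KOPN-8 library.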
